A study of Arabidopsis thaliana with 8 samples.

Results

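The transcripts described here are those of 5 *Arabidopsis thaliana* genes of the iron deficiency response: F6'H1 (AT3G13610), S8H (AT3G12900) and BGLU42 (AT5G36890) of coumarin synthesis and release, the peptide gene IMA1 (AT1G47400) and the regulator gene PYE (AT3G47640). They were chosen by name, with earlier results of these data known. Each was read through its brightest probe set that the array annotation assigns to 1 gene. Each of the 5 had 1 such probe set, and 13287 genes in all had one among the 22746 probe sets outside the controls. The annotation lists S8H and IMA1 by locus identifier only.

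Plants that lack usable iron release coumarins from their roots. F6'H1 hydroxylates feruloyl-CoA and thereby opens the route to scopoletin, S8H hydroxylates scopoletin to fraxetin, which can reduce and bind ferric iron, and BGLU42 is a beta-glucosidase that frees coumarins from their stored glucosides. IMA1 encodes a short IRON MAN peptide that promotes iron uptake responses. PYE encodes a basic helix-loop-helix (bHLH) transcription factor that is induced in iron-deficient roots and represses genes of iron distribution. Excess zinc is known to disturb iron nutrition, and several of these genes are commonly used as markers of iron deficiency.

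Whole seedlings of wild type and of the mutant dez, 7 days old and grown in darkness after a brief exposure to light, were compared on a modified Hoagland medium. Control medium held 1 µM zinc and high-Zn medium 100 µM. The 4 groups, here called wild-type control, wild-type high-Zn, dez control and dez high-Zn, were each sampled as 2 biological replicates. A replicate pooled about 45 seedlings and was read on 1 Affymetrix ATH1 array, and the number of arrays, 8, limits the precision. As background, dez is an allele of TRICHOME BIREFRINGENCE (TBR), whose family acts in acetylation of wall polysaccharides. It is 1 mutant line, and the sources used here do not describe its lesion. The TBR probe set ranged from 112 to 168 over the arrays and therefore does not check the genotype labels.

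Values are deposited intensities on a linear scale. Array medians lay between 34.9 and 37.4. Differences and their standard errors (SE) are on the scale log2(intensity + 16), which understates changes of dim genes, and come from limma with Benjamini-Hochberg adjustment over 13648 tested probe sets and a threshold of 0.05. In whole seedlings, fewer or more cells of a type and less or more RNA per cell cannot be told apart.

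All 5 genes had their highest intensity in dez on high zinc, on both arrays of that group. F6'H1 and IMA1 were already higher in dez on control medium, whereas S8H and PYE, with differences of -0.01 and 0.06 (log2), did not pass there. High zinc alone gave no call for any of them in wild type.

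F6'H1, at the entry to the coumarin route, gave intensities of 195 and 168 on the wild-type control arrays, 293 and 238 on wild-type high-Zn, 491 and 404 on dez control and 839 and 1042 on dez high-Zn. The groups followed each other in that order with no overlap between neighbours. Zinc raised F6'H1 in dez by 1.04 ± 0.15 (log2, SE, adjusted p = 4.70e-04), and dez raised it by 1.23 ± 0.15 on control medium (adjusted p = 9.95e-04) and by 1.76 ± 0.15 on high zinc (adjusted p = 1.19e-05). Its rise on control medium was the 48th largest of all tested probe sets. In wild type the zinc difference of 0.51 ± 0.15 did not pass (adjusted p = 0.206), although both high-zinc arrays lay above both control arrays.

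S8H, which acts downstream of F6'H1, gave 15.9 and 11.0 on the wild-type control arrays, 17.1 and 20.0 on wild-type high-Zn, 13.4 and 12.8 on dez control and 113 and 161 on dez high-Zn. The control groups overlapped, wild type on high zinc lay slightly above them, and dez on high zinc stood far above all other arrays. Zinc raised S8H in dez by 2.38 ± 0.14 (log2, SE, adjusted p = 1.93e-06), the 47th largest rise of the comparison, and the ratio of the 2 group means was 10.5. Mutant and wild type differed by 2.13 ± 0.14 on high zinc (adjusted p = 2.92e-06) and by -0.01 ± 0.14 on control medium (adjusted p = 0.967), where scaling to the poly-A controls gave 0.47 with an adjusted p = 0.321. The zinc difference in wild type was 0.23 ± 0.14 (adjusted p = 0.584).

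The size given for S8H rests on the pseudocount, since 3 of its 4 groups were dim: the zinc difference in dez was 3.27 with a pseudocount of 1 and 1.37 with one of 64. S8H also passed the filter on low values only through dez on high zinc, the group in which it was high, because the other 3 groups lay under the minimum, equal to an intensity of 22.1. The rank given for its rise in dez refers to that filtered set, and the ratio of group means has a dim group as its denominator. Without any filter its zinc difference in dez had an adjusted p = 2.79e-06.

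BGLU42, of coumarin release, gave 55.1 and 62.4 on the wild-type control arrays, 76.5 and 55.6 on wild-type high-Zn, 81.5 and 83.1 on dez control and 173 and 193 on dez high-Zn. The wild-type groups overlapped, dez on control medium lay just above both, and dez on high zinc was the highest. In dez zinc raised it by 1.01 ± 0.14 (log2, SE, adjusted p = 2.69e-04). On high zinc dez exceeded wild type by 1.29 ± 0.14 (adjusted p = 4.27e-05). The difference of 0.40 ± 0.14 between the genotypes on control medium missed the threshold with all arrays (adjusted p = 0.0955). It ran from 0.33 to 0.47 with 1 array left out. Whether it passed depended on the pooled spread, to which the wild-type high-Zn arrays, outside this comparison, contribute. Leaving out either of those arrays does not change the difference itself. In wild type the zinc difference was 0.12 ± 0.14 and turned to -0.061 without high-Zn replicate 1.

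IMA1, the peptide gene, gave 33.6 and 27.2 on the wild-type control arrays, 38.9 and 57.1 on wild-type high-Zn, 89.0 and 70.8 on dez control and 211 and 288 on dez high-Zn. As for F6'H1, the groups rose in that order without overlap. Zinc raised IMA1 in dez by 1.46 ± 0.18 (log2, SE, adjusted p = 1.66e-04). Between the genotypes it differed by 1.04 ± 0.18 on control medium (adjusted p = 0.00552) and by 2.05 ± 0.18 on high zinc (adjusted p = 1.29e-05). The call on control medium was lost without dez control replicate 1, where the difference was 0.91 and the adjusted p = 0.0550. In wild type zinc gave 0.45 ± 0.18 (adjusted p = 0.359). Whether the IMA1 probes also read transcript of the neighbouring locus AT1G47395 was not examined.

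PYE, the transcription factor gene, gave 25.9 and 24.3 on the wild-type control arrays, 24.6 and 32.2 on wild-type high-Zn, 28.4 and 25.7 on dez control and 60.7 and 61.2 on dez high-Zn. The first 3 groups overlapped, and dez on high zinc stood alone with 2 almost equal arrays. Zinc raised PYE in dez by 0.84 ± 0.11 (log2, SE, adjusted p = 2.01e-04), a ratio of mean intensities of 2.25, and dez exceeded wild type on high zinc by 0.80 ± 0.11 (adjusted p = 1.96e-04). Being dim, PYE too depended on the pseudocount, with a zinc difference in dez between 0.46 and 1.15. On control medium the genotypes differed by 0.06 ± 0.11 (adjusted p = 0.751), and zinc gave 0.10 ± 0.11 in wild type (adjusted p = 0.771), or -0.020 without high-Zn replicate 2.

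**Figure D1:**
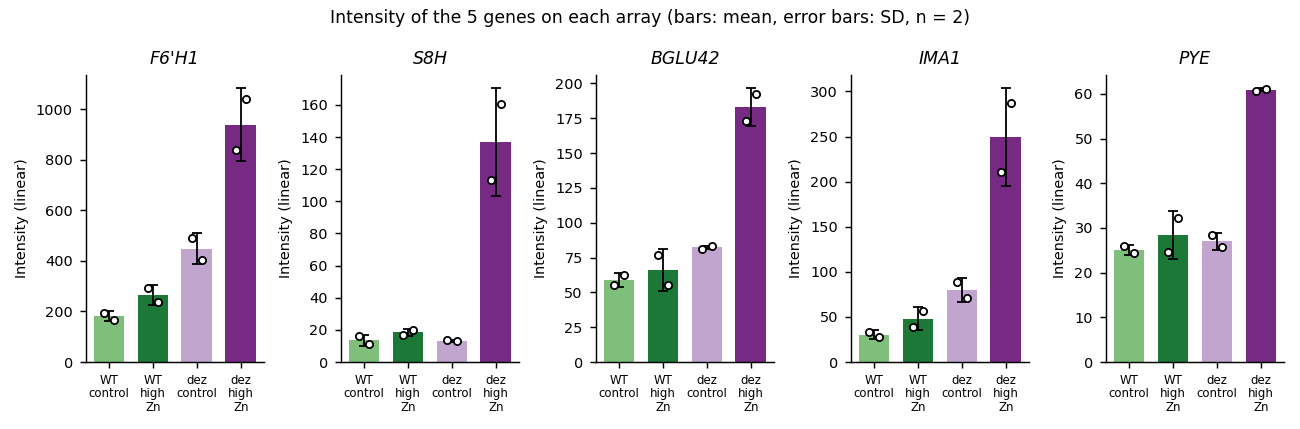
Intensity (linear scale, each panel with its own axis from 0) of F6'H1, S8H, BGLU42, IMA1 and PYE in the 4 groups; bars are means, error bars SDs, and open circles the 2 arrays of each group. F6'H1 and IMA1 step up from group to group, while S8H and PYE stay low in 3 groups and stand out in dez on high zinc, at means of 137 and 60.9.

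Counted over the genes, zinc in dez raised 5 of 5, where 16.6% of all tested probe sets rose. Without the filter on low values, which S8H had passed through its high group, 5 of 5 rose as well, against 11.8% of 22746 probe sets. Both dez high-Zn arrays lay above both dez control arrays for 5 of 5, against 36.4% of the tested probe sets. The median difference was 1.04, beside 0.01 over all tested probe sets. On high zinc dez exceeded wild type for 5 of 5, where 22.2% of tested probe sets were called higher, with a median of 1.76 beside 0.02. The arrays of the 2 genotypes stood apart there for 5 of 5, against 37.8% of probe sets. The shares of 36.4%, 22.2% and 37.8% are of the filtered set, which S8H entered only through dez on high zinc. Without the filter the genotype difference of S8H on high zinc had an adjusted p = 4.49e-06.

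On control medium dez exceeded wild type for 2 of the 5 genes, F6'H1 and IMA1, where 4.2% of tested probe sets were called higher. BGLU42 joined them in keeping its arrays apart, so that 3 of 5 had both dez arrays above both wild-type arrays, against 31.6% of probe sets. The median of the 5 was 0.40 beside 0.03 over all tested probe sets. In wild type zinc gave a call for 0 of 5 by limma, where 0.462% of probe sets were called higher. F6'H1 and IMA1 had unadjusted p-values of 0.00693 and 0.0298 there, and F6'H1, S8H and IMA1, 3 of 5, had both high-zinc arrays above both control arrays, against 21.1% of probe sets. The median of the 5 was 0.23 beside 0.0038 over all tested probe sets. These comparisons share arrays with each other, so their counts are not separate evidence. The 5 genes were also chosen with earlier results of these data known, so the counts are descriptions only.

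**Figure D2:**
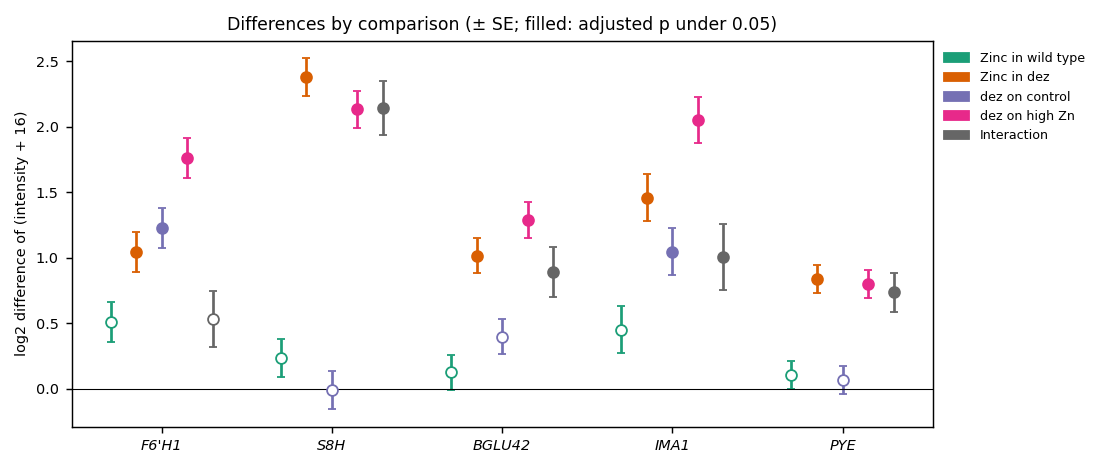
Log2 difference of (intensity + 16) for each gene in the 5 comparisons, with SE; filled points passed an adjusted p of 0.05. F6'H1 and IMA1 have filled points for dez on control medium, at 1.23 and 1.04, where S8H and PYE lie at -0.01 and 0.06.

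The interaction compares the zinc effect in dez with that in wild type. It was positive and past the threshold for 4 of the 5 genes, where 8.87% of tested probe sets had a positive call. S8H had the largest of the 5, 2.14 ± 0.20 (log2, SE, adjusted p = 1.12e-04), the 54th highest of all tested probe sets. S8H passed the filter on low values only through dez on high zinc, a group of this comparison. Both its rank and the 8.87% refer to that filtered set. Without the filter the interaction of S8H had an adjusted p = 1.63e-04. IMA1 followed with 1.01 ± 0.25 (adjusted p = 0.0187), BGLU42 with 0.89 ± 0.19 (adjusted p = 0.00849) and PYE with 0.73 ± 0.15 (adjusted p = 0.00673). These sizes depend on the settings, the pseudocount among them. Over the alternatives run, S8H ranged from 1.28 to 2.82. IMA1 lay between 0.80 and 1.33, BGLU42 between 0.67 and 1.22 and PYE between 0.41 and 1.06. The order of IMA1, BGLU42 and PYE was thus not resolved. The interaction of F6'H1, 0.53 ± 0.21, did not pass (adjusted p = 0.114), which does not show that its zinc effect was alike in both genotypes. That of IMA1 lost its call without wild-type control replicate 1, dez control replicate 2 or dez high-Zn replicate 2, with adjusted p = 0.0542, 0.0827 and 0.0810 and values of 0.91, 0.87 and 0.80. When arrays were scaled to the spiked poly-A controls, S8H alone of the 5 passed, and IMA1, BGLU42 and PYE had values of 1.33, 1.22 and 1.06 with adjusted p = 0.232, 0.339 and 0.493. The poly-A means of replicates differed, at 7.43 and 7.91 in wild-type control and 7.30 and 7.86 in wild-type high-Zn. They were 7.28 and 7.09 in dez control and 6.94 and 6.61 in dez high-Zn. The scaling carries these gaps into every probe set, and the share of all tested probe sets called on that scale is not given here.

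Of 69 further genes listed for iron regulation, iron uptake, metal transport, iron storage, coumarins and the phenylpropanoid route that feeds them, 13 had a probe set assigned to 1 gene and 10 were tested. The annotation used leaves 8730 of the 22746 probe sets unlisted, so a gene without a named probe set may still be on the array. None of the genes of iron uptake and of ferritin was among the 13, and those steps are not analysed here. In dez zinc raised 4 of the 10 and lowered 1, where 16.6% of all tested probe sets rose and 17.4% fell. On high zinc dez exceeded wild type for 4, where 22.2% were called higher. Zinc in wild type gave 0 calls among the 10 by limma, where 0.703% of tested probe sets were called in either direction, and 4 of the 10 had an unadjusted p under 0.05. The mutant on control medium gave 0 calls against 9.58%, with 2 of the 10 under 0.05 unadjusted. The interaction was positive and past the threshold for 4 of the 10, AT1G74770, AT1G18910, AT1G28680 and HCT, beside 8.87% of tested probe sets, and none of these 4 passed when arrays were scaled to the poly-A controls. The median of the 10 was 0.16 for zinc in dez, 0.12 for the genotypes on high zinc and 0.10 for the interaction.

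Among the iron regulators, 5 bHLH genes other than PYE were tested, and none passed on the deposited scale. ILR3, bHLH104, bHLH115 and bHLH34 encode bHLH factors of one subgroup that activates iron deficiency genes, and bHLH121 encodes a partner of theirs. Their zinc differences in dez were -0.16, 0.09, -0.14, 0.22 and -0.38 in that order, with adjusted p between 0.115 and 0.612, and none of the 5 passed in the other comparisons on that scale. Between the genotypes on high zinc, ILR3 passed under quantile normalization at -0.35 (adjusted p = 0.0316), and bHLH104 and bHLH34 passed under poly-A scaling at 0.83 and 1.04 (adjusted p = 0.0388 and 0.012), where the median of all probe sets was 0.84. The intensity of ILR3, for example, was 418 ± 11.9 (SD, n = 2) in the wild-type control group and 303 ± 18.0 in dez high-Zn. The other 2 tested regulators did rise with zinc in dez. AT1G74770 had a mean of 64.6 ± 9.93 (SD, n = 2) in dez control and 218 ± 24.9 in dez high-Zn, a difference of 1.54 ± 0.15 (adjusted p = 3.43e-05), and a further, dimmer probe set of that locus gave 0.76. AT1G18910 rose by 0.73 ± 0.11 (adjusted p = 4.98e-04), from 77.2 ± 2.53 to 138 ± 9.38, while its genotype difference on high zinc went from 0.50 to 0.44, with an adjusted p = 0.0792, when the gap between 3' and 5' control probe sets was a covariate. Unlike F6'H1 and IMA1, these loci had genotype differences of -0.19 and -0.12 on control medium, with adjusted p = 0.478 and 0.515.

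BHLH101, a bHLH gene known to be induced strongly by iron deficiency, was too dim for the filter. Its intensity was 13.0 and 13.7 for wild-type control, 17.5 and 18.7 for wild-type high-Zn, 11.9 and 12.4 for dez control and 39.4 and 42.4 for dez high-Zn. The group means thus had the same order as those of S8H. Without the filter zinc raised BHLH101 in dez by 1.02 ± 0.08 (adjusted p = 9.56e-06) and its interaction was 0.80 ± 0.11 (adjusted p = 0.00104).

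In the coumarin and phenylpropanoid lists, AT1G28680 and HCT, which encodes a hydroxycinnamoyl transferase of the phenylpropanoid route, rose with the 5 genes. AT1G28680 ranged from 124 to 132 in the wild-type control group, from 112 to 129 in wild-type high-Zn, from 167 to 179 in dez control and from 352 to 366 in dez high-Zn. Zinc raised it in dez by 0.99 ± 0.11 (adjusted p = 9.02e-05), and its genotype difference on control medium was 0.39 ± 0.11 (adjusted p = 0.0517, or 0.047 under quantile normalization). HCT had a mean of 467 ± 19.3 (SD, n = 2) in dez control and 1114 ± 44.4 in dez high-Zn, a rise of 1.23 ± 0.11 (adjusted p = 2.35e-05). F6'H2, a second gene for a feruloyl-CoA hydroxylase, was under the filter, with group means between 17.5 and 23.2 and a zinc difference in dez of 0.22 ± 0.09 without the filter (adjusted p = 0.132). PYK10, an abundant beta-glucosidase of roots and hypocotyls, fell by 0.28 with zinc in dez (adjusted p = 0.0499), a difference that turned to 0.13 when arrays were scaled to the poly-A controls and had an adjusted p = 0.121 with that covariate.

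**Figure D3:**
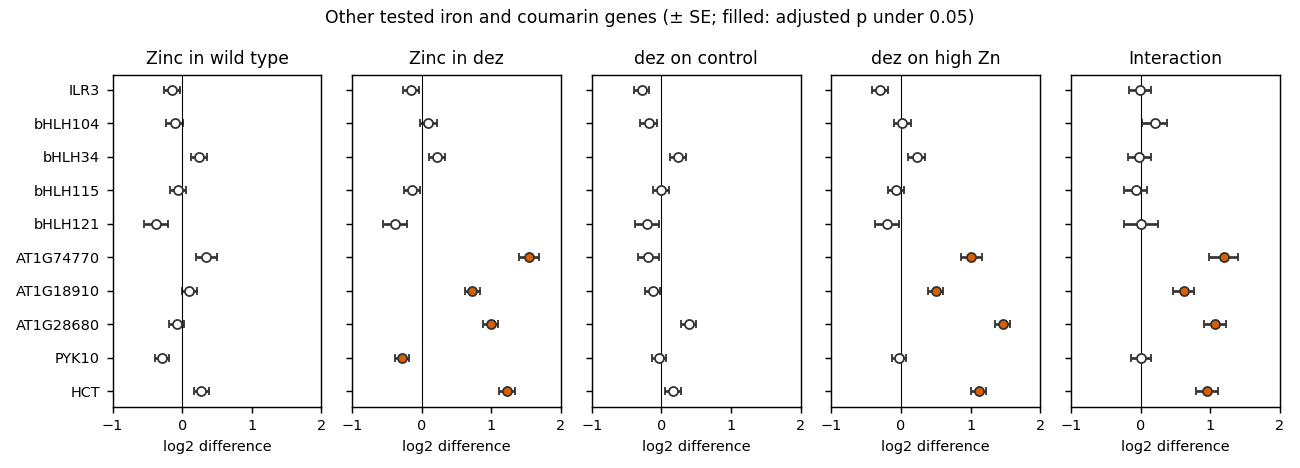
Log2 differences with SE of the 10 tested genes of the other iron and coumarin lists, 1 panel per comparison; filled points passed an adjusted p of 0.05. AT1G74770, AT1G18910, AT1G28680 and HCT lie to the right with filled points for zinc in dez, dez on high zinc and the interaction, while the 5 bHLH genes have open points throughout on the deposited scale shown.

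Likeness of pattern was measured as Pearson's r of the log2 values over the 8 arrays among 7284 tested probe sets of 1 gene. The arrays form 4 groups and 1 of them stands apart, so a high r is common: between 492 and 774 probe sets exceeded 0.9 for each of the 5 genes. Nearest to S8H were AT3G47480, PRN, PDF1.4, AT2G24600 and AT1G18210, with r between 0.993 and 0.997. PDF1.4, a defensin-like gene, had 14.1 ± 0.94 (SD, n = 2) in the dez control group and 248 ± 32.6 in dez high-Zn. Nearest to F6'H1 were AT3G18760, Cpn60beta3, SIR, AT5G08060 and AT4G22310, with r between 0.990 and 0.996. SIR, the sulfite reductase of sulfur assimilation, had 281 ± 0.29, 327 ± 12.8, 416 ± 4.91 and 552 ± 16.6 in the order of groups used above.

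For BGLU42 the nearest were AT4G34180, IDH-V, AT3G54150, AT4G35110 and AT2G16900 (r between 0.994 and 0.998). For IMA1 they were HMT-1, AT2G27730, AT4G22310, AT1G12000 and UGT72E1 (r between 0.985 and 0.988), and AT4G22310 thus stood in the lists of both F6'H1 and IMA1. UGT72E1, a glucosyltransferase of phenylpropanoids, had 165 ± 4.81, 234 ± 4.02, 296 ± 10.8 and 625 ± 44.9 in the same order. For PYE they were TBL39, a relative of TBR, HCT, AT3G16330, AT5G58150 and AT3G15710 (r between 0.991 and 0.995). The highest mean r with all 5 genes, between 0.961 and 0.966, belonged to AT4G12490, AT2G43620, AT1G80130, AT1G56680 and AT3G15650.

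Other features of the arrays moved in the same group. The 8 genes of 13 in the list of cotyledon and photosynthesis markers that had a probe set fell with zinc in dez, 8 of 8, where 17.4% of tested probe sets fell, and their summed intensity was 4357 and 4946 in dez on high zinc against 8621 to 12367 on the other 6 arrays. Under poly-A scaling 1 of the 8, PSAN, passed, with adjusted p between 0.112 and 0.992 for the others, and with the 3'-5' covariate PSBY did not pass (adjusted p = 0.0649). For root hairs 2 of 10 markers had a probe set, EXPA7 and EXPA18, both under the filter, and summed to 34.4 and 65.9 in dez on high zinc against 20.4 to 27.2 elsewhere. None of the 12 markers of root endodermis and stele had a probe set named in the annotation, and they are not analysed here. The part of these tissues in the rise of the 5 genes was not tested.

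The mean log2 intensity of the spiked poly-A controls was 6.61 and 6.94 in dez on high zinc and 7.09 to 7.91 on the other arrays. The difference between 3' and 5' probe sets of actin and GAPDH, a sign of RNA quality and labelling, was 1.14 and 1.16 against 1.30 to 1.93. With that difference as a covariate zinc in dez raised 5 of 5 genes, by 2.46 for S8H, 1.54 for IMA1, 1.23 for F6'H1, 1.00 for BGLU42 and 0.85 for PYE. Both dez high-Zn arrays lay under all others in that difference, so the fit cannot fully separate the covariate from the group. Scaling to the poly-A controls moved the median of all probe sets for zinc in dez to 0.42. On that scale the differences were 2.79 for S8H, 1.87 for IMA1, 1.45 for F6'H1, 1.43 for BGLU42 and 1.25 for PYE, 5 of 5 past the threshold. The shares of all tested probe sets called with the covariate and on the poly-A scale are not given here, so these counts are descriptions only. The scaling moves all probe sets of an array alike, so relative to the median the rises equal those on the deposited scale by construction.

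**Figure D4:**
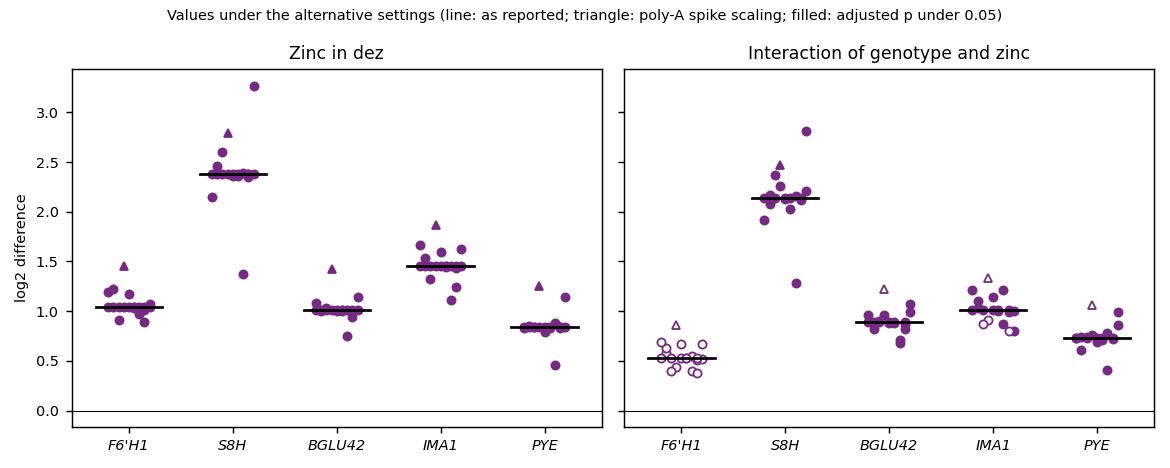
Log2 difference of each gene under the alternative settings, for zinc in dez (left) and the interaction (right); the line is the value reported above, triangles are poly-A spike scaling, and filled symbols passed an adjusted p of 0.05. For zinc in dez every symbol drawn is filled and above 0. For the interaction those of F6'H1 are open and those of IMA1 are mixed, and the triangles of BGLU42 and PYE are open.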

How the data were processed

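Biotin-labelled RNA of whole seedlings was read on ATH1 arrays, per the labels' protocols. The deposited values are linear intensities, 1 for each probe set on each array. MAS5 is named in the submitters' processing notes, and the sources used here do not give the authors' scaling. Of 22810 probe sets, 64 controls were left out, and the upper 60% by mean log2(intensity + 16) were kept. Group means were fitted to all 8 arrays with limma 3.58.1 under R 4.3.3, using lmFit and eBayes with trend = TRUE and two-sided tests, and the script was tested on simulated data. The labels call replicates biological. No label says that a shared number links replicates, so the reported fit has no replicate block. Probe sets were named through the platform annotation and, by gene identifier, RefSeq (TAIR10.1), where 13436 of 13513 single-gene probe sets matched. Named genes are the 5 genes, every tested gene of the other lists, and the 5 probe sets most like each of the 5 genes. Genes, lists and alternatives were chosen with earlier results of these data known.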

Additional observations from a re-analysis of the deposited data

Results flagged for a closer look

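By limma's interaction test, 4 of the 5 genes responded to zinc by different amounts in the 2 genotypes, where 8.87% of tested probe sets had a positive call. Of these genes, S8H passed the filter on low values only through dez on high zinc. Without the filter it had an adjusted p = 1.63e-04 in that test. The interaction was 2.14 (log2) for S8H, whose mean intensity was 13.4 and 18.5 on control and high-zinc medium in wild type and 13.1 and 137 in dez. It was 1.01 for IMA1, with 30.4 and 48.0 in wild type and 79.9 and 249 in dez. For BGLU42 it was 0.89, with 58.8 and 66.1 in wild type and 82.3 and 183 in dez. PYE had 0.73, with 25.1 and 28.4 in wild type and 27.0 and 60.9 in dez. Under poly-A scaling S8H alone of these passed, with adjusted p = 0.232 for IMA1, 0.339 for BGLU42 and 0.493 for PYE. That scaling carries the gaps between replicates in the poly-A controls into every probe set. IMA1 also lost its call without wild-type control replicate 1, dez control replicate 2 or dez high-Zn replicate 2, at adjusted p = 0.0542, 0.0827 and 0.0810.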

How the results depend on the processing

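Over the alternatives run, the count of the 5 genes past the threshold stayed at 0 for zinc in wild type and at 5 for zinc in dez and dez on high zinc, except with the upper 40% of probe sets, which left S8H and PYE untested: 3, 3 and, for the interaction, 2. For the interaction poly-A spike scaling gave 1, against 4 as reported. Leaving out 1 array gave 1 to 3 genes for dez on control medium and 3 to 4 for the interaction. Values near 0 changed sign: S8H for dez on control medium was 0.47 under poly-A scaling, 0.093 with the 3'-5' covariate and -0.13 to 0.11 with 1 array left out. BGLU42 and PYE for zinc in wild type ranged from -0.061 to 0.31 and from -0.020 to 0.23 with 1 array left out. The causes were not tested. With the replicate number as a block the counts were 0, 5, 2, 5 and 4, as without it. Deviations of same-numbered arrays from their group means correlated between -0.36 and 0.37, so the numbers were not taken to pair arrays. With 2 arrays per group, small differences such as those in wild type are not resolved, and no background level of the arrays is known.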

Other observations

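As a description with no test, the mean intensity in dez on high zinc may be set beside the level that the separate ratios would give, which is dez on control medium times the wild-type ratio of high zinc to control. That product was 18.1 for S8H against 137 measured, 126 for IMA1 against 249, 92.5 for BGLU42 against 183, 30.5 for PYE against 60.9 and 655 for F6'H1 against 940.1. The sum of the separate differences gave 18.2, 97.5, 89.6, 30.3 and 532 in the same order. AT3G58060, the 1 metal transport gene with a probe set, had group means between 5.44 and 5.81 in 3 groups and 9.69 ± 0.71 (SD, n = 2) in dez on high zinc, and was under the filter on low values.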
